A study of Macaca mulatta with 8 samples.

Results

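The cadherins and protocadherins are the calcium-dependent adhesion proteins that carry extracellular cadherin repeats. They were taken here by gene symbol: every symbol made of CDH or PCDH and a number, together with the clustered protocadherin symbols. The rule found 45 genes among the 21748 in the count matrix, and each of the 45 had at least 1 count. They fall into 5 classical type I cadherins, 13 type II cadherins, 5 other cadherins, 3 delta-1 and 5 delta-2 protocadherins, 2 other non-clustered protocadherins, 11 clustered PCDHB genes and 1 clustered PCDHG gene. PCDH11X and PCDH20 are listed in the matrix by identifier only and so lie outside the rule. They are described separately.

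Classical cadherins join cells through their outer repeats and hold the actin cytoskeleton through catenins bound to their tails. Type I cadherins are broadly expressed, whereas type II cadherins are known for combinations that differ from one neuron type to the next and for a role in matching synaptic partners, including in the hippocampus. Delta protocadherins adhere more weakly, and some of them signal to actin through the WAVE complex. The clustered protocadherins are chosen promoter by promoter and serve self-recognition of neurites.

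The study sequenced nuclei of male rhesus macaques labelled as hippocampus (1 protocol text names amygdala), with 10x Genomics 3′ chemistry. Tissue of 2 control animals was pooled and divided into 4 samples, and tissue of 1 animal given sevoflurane, an inhaled anaesthetic, was likewise divided into 4 samples. Sevoflurane was inhaled at about 2.5 to 3% for 4 hours on each of 3 occasions, the first near postnatal day 7 and the later ones listed as 14 and 28 days; the sources used here state neither age at collection nor genotype. The 8 libraries of the matrix carry only a barcode suffix from 1 to 8 that no source ties to a sample, so sevoflurane and control were not compared and each result below is a difference between classes of nuclei.

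Each library held 5655 to 9681 barcodes and 35806547 to 47007082 counts of unique molecular identifiers (UMIs). Libraries 1 to 4 had medians of 3189 to 3426 UMIs per nucleus and libraries 5 to 8 had 5730 to 5831. After filtering and removal of likely doublets, 54644 nuclei formed 45 clusters, of which 40 were named from marker genes and grouped into 18 classes, and 5 clusters with 2911 nuclei stayed unnamed. Class names stand for marker-based likeness throughout, so that "granule" means granule-like. Many clusters came almost wholly from one of the library sets: 95.5% of oligodendrocyte nuclei, 93.2% of microglia, 97.3% of immature neurons and 88.5% of oligodendrocyte precursors, but 29.8% of pyramidal nuclei, were in libraries 1 to 4. Pairs of libraries shared 8 to 32 barcode sequences.

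Granule neurons are the principal cells of the dentate gyrus, so their markers bear on the tissue label. The dentate granule class held 3108 nuclei and had 6 of 8 granule markers at 10 CPM (UMIs of a gene divided by all UMIs of the class and scaled to 1e+06) or more, with a summed level of 2765 CPM (libraries 2650.4 to 3015 CPM). The immature neuron class had 6 of 8 immature markers at that level, summing to 890.4 CPM against 173.7 CPM in granule neurons. An unnamed cluster of 895 nuclei had a higher sum, 1062 CPM (libraries 931 to 1183 CPM), with 4 of the 8 at that level. None of those markers is among the 10 leading genes of the immature neuron class, which include the granule-lineage gene PROX1.

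Levels are CPM of all UMIs in a class. They are compared for 1 gene between classes and not between genes, since nothing was scaled to gene length. A gene was called higher in a class when its pooled level was at least 2-fold that of the other class, reached 10 CPM in the higher class, and was higher there in every library with at least 50 nuclei of both classes. With 1 matrix and no key to its samples there is no test between samples, and no p-value is given; bracketed ranges are 95% counting intervals (exact Poisson or binomial) and do not include the spread between libraries, which is given as lowest, median and highest.

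Of the 45 genes, 31 reached 10 CPM in some class and 15 reached it in all 18. The 14 that did not were 10 PCDHB genes, PCDH12, CDH24, CDH16 and CDH15. The class of highest level was newly formed oligodendrocytes for 6 of the 31, more than for any other class, beside 3.65% of all genes. It was oligodendrocyte precursors for 3, beside 2.51%. These counts were not tested. Only 4 genes were led by 1 class, meaning at least 2-fold above the next highest class: CDH3, CDH5, PCDH7 and PCDH9. That is 12.9% of the 31, beside 16.8% of all genes at 10 CPM in some class, so such leads were not more frequent among these genes than in the background. By class, the background share of genes led was 0.0707% for SST interneurons, 2.45% for endothelial cells, 0.786% for newly formed oligodendrocytes and 1.42% for oligodendrocytes.

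**Figure D1:**
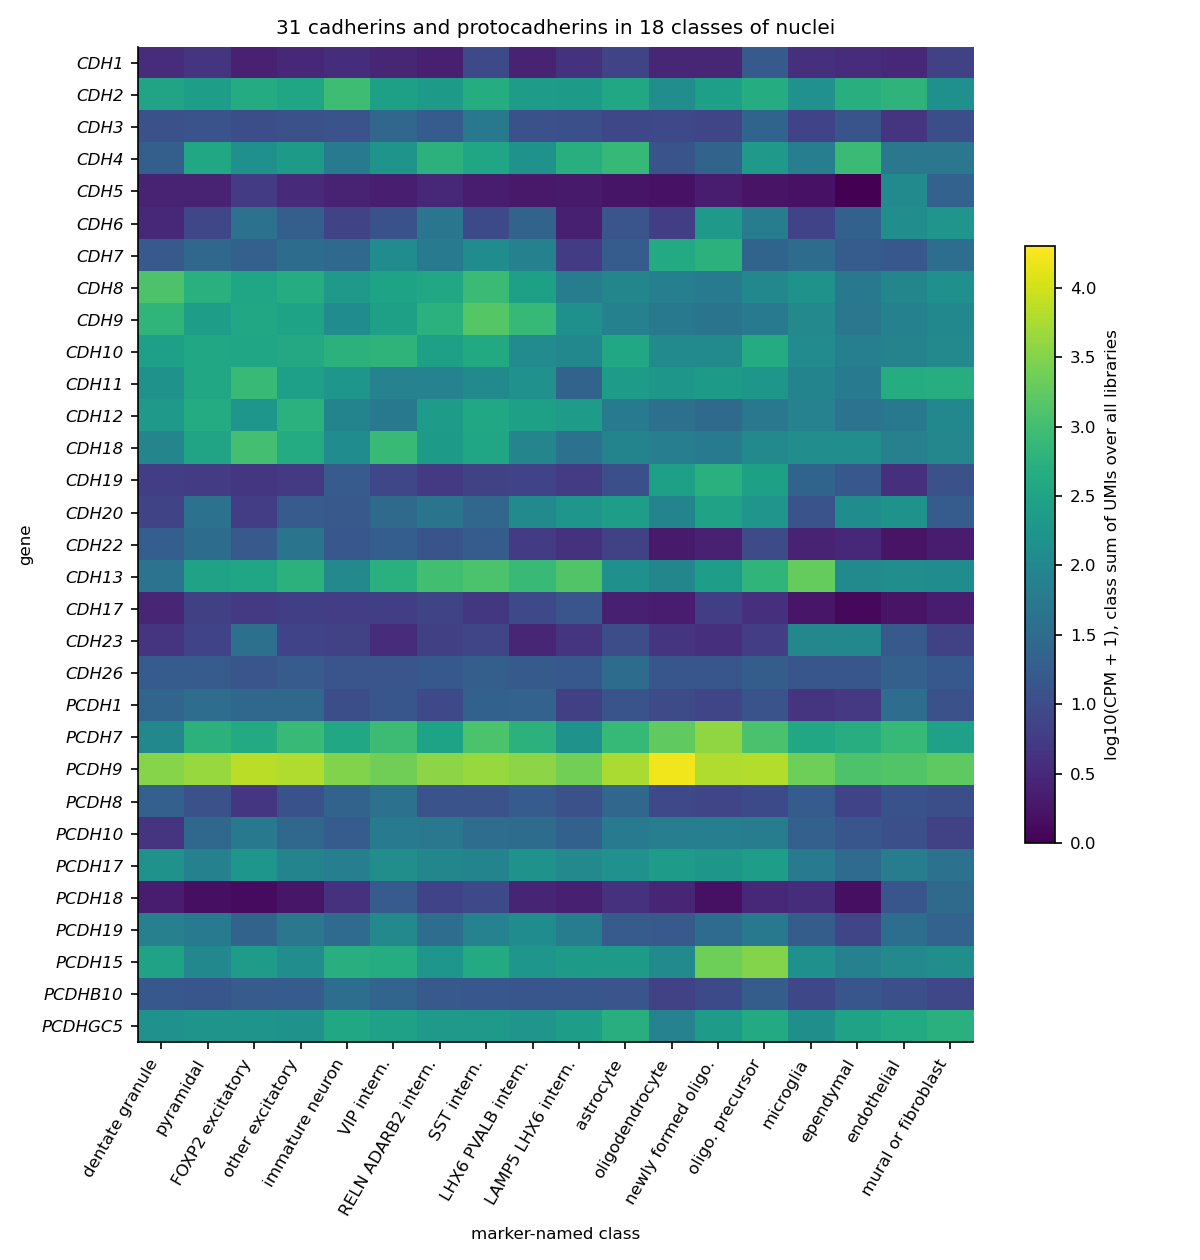
Level of the 31 genes that reached 10 CPM in a class (rows, ordered by structure) in 18 classes (columns), as log10(CPM + 1) of the UMIs summed over all libraries. Shades are to be read along a row; 15 rows stay at or above 10 CPM in every class, and CDH5 stands out in endothelial nuclei at 113 CPM.

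Related classes differed by several fold. Over 5 interneuron classes, 13 of 27 genes at 10 CPM differed at least 5-fold between the highest and the lowest class, beside 7.61% of all genes. Over 4 excitatory classes the count was 9 of 26, beside 7.57%. Over oligodendrocyte precursors, newly formed oligodendrocytes and oligodendrocytes it was 7 of 25, beside 11.9%. The median spread was 3.97-fold among interneuron classes (1.43-fold over all genes) and 3.06-fold among excitatory classes (1.44-fold over all genes). These shares describe the pooled levels and were not tested.

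Neurons and non-neuronal nuclei were compared first. Of 27 genes measured, 7 were called higher in neurons, beside 11.7% of all genes, and 6 higher in non-neuronal nuclei, beside 18.7%. The median log2 ratio was -0.06, against -0.23 over all genes. Type II cadherins made up most of the neuronal side: CDH8, CDH9, CDH12, CDH18 and CDH22 were called higher in neurons, and CDH6, CDH19 and CDH20 were called lower.

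CDH12, a type II cadherin of brain, had 275.4, 401.7 and 468.04 CPM in neurons (lowest, median, highest library) and 34.9, 67.1 and 75.6 CPM in non-neuronal nuclei. The libraries did not overlap, and the pooled ratio was 7.81 (7.54 to 8.09). CDH22 was 7.79-fold higher in neurons (6.84 to 8.9) at a low level, 29.6 CPM against 3.8 CPM. CDH9 was 6.35-fold, CDH8 6.08-fold and CDH18 4.51-fold higher in neurons, each in 8 of 8 libraries. The delta protocadherins called in the same direction were PCDH19, an X-linked gene mutated in an epilepsy, at 58.1 against 23.1 CPM and PCDH1 at 25.6 against 9.94 CPM.

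On the non-neuronal side, CDH19, a type II cadherin known from Schwann cell precursors, stood at 4.98 CPM in neurons and at 174 CPM in non-neuronal nuclei, where libraries ran from 20.9 through 71.9 to 253 CPM. The pooled log2 ratio of -5.13 moved to -2.70 within libraries 5 to 8, which hold few oligodendrocyte nuclei. PCDH15, which forms the tip link of hair cells with CDH23, was 4.41-fold higher in non-neuronal nuclei (4.35 to 4.47), and CDH20 was 5.69-fold higher (5.52 to 5.88). CDH6 was 2.39-fold higher in non-neuronal nuclei; its log2 ratio over all libraries was -1.26, and within libraries 5 to 8 the difference was just short of 2-fold, which ended the call. PCDH7 and CDH23 were called here too, at log2 ratios of -1.06 and -1.21, but both calls ended under TMM scaling, at -0.83 and -0.99. Without library 3 or without library 4, PCDH7 came to -0.93 and -0.94. CDH7 was 4.77-fold higher in non-neuronal nuclei in the pool yet higher in only 6 of 8 libraries, and its log2 ratio within libraries 5 to 8 was -0.01, so it was not called. Not every non-neuronal class was above the pooled neurons in these genes. PCDH15 was 76.8 CPM in ependymal cells and 115 CPM in oligodendrocytes, against 186.5 CPM in neurons and 3212 CPM in precursors. CDH6 was 5.16 CPM in oligodendrocytes and 12.4 CPM in astrocytes, against 16.5 CPM in neurons. CDH20 was 11.4 CPM in microglia, against 28.4 CPM in neurons, and CDH23 was 3.52 CPM in oligodendrocytes, against 8.27 CPM.

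Excitatory and inhibitory neurons differed in 8 of 25 genes. CDH11 and CDH22 were called higher in excitatory neurons, beside 6.14% of all genes, and 6 genes higher in inhibitory neurons, beside 6.49%. CDH11, known as osteoblast cadherin, had 306, 334 and 386 CPM in excitatory neurons and 82.3, 98.2 and 119.9 CPM in inhibitory neurons. No library overlapped, and the ratio was 3.46 (3.36 to 3.58). CDH22 was 34.2 CPM in pooled excitatory and 12.1 CPM in pooled inhibitory neurons, but the classes were not separated. It was 17.9 CPM in granule neurons, 17.9 CPM in VIP and 17.1 CPM in SST interneurons.

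Inhibitory neurons had the higher level of the type II cadherins CDH7, CDH20 and CDH9, of CDH3 (P-cadherin), of CDH13 (T-cadherin, which is held by a lipid anchor and has no catenin-binding tail) and of PCDH15. CDH7 was 3.23-fold higher (3.1 to 3.38), with 58.3 to 128 CPM against 22.3 to 33.1 CPM across libraries. CDH13 was 2.36-fold higher, at 950.9 against 403 CPM. All 6 calls compare pooled inhibitory neurons, and not every interneuron class was above the excitatory pool. CDH3 was 10.8 CPM in LHX6 PVALB and 10 CPM in LAMP5 LHX6 interneurons, against 10.8 CPM in excitatory neurons. CDH7 was 4.61 CPM in LAMP5 LHX6 interneurons, against 27 CPM. CDH9 was 142 CPM in LAMP5 LHX6 and 281 CPM in VIP interneurons, against 341 CPM. Libraries did not overlap for any of the 6 genes. Since a call already requires 1 direction in every library, and overlap was not counted over all genes, this adds little to the calls. The call of PCDH15 sat at 2.003-fold and ended under TMM scaling, with doublets kept, at finer clustering and without library 3 or without library 4. The calls of CDH9, CDH13 and PCDH15 ended within libraries 5 to 8, at log2 ratios of -0.78, -0.96 and -0.91.

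The 5 interneuron classes each had their own set of high genes. SST interneurons, which inhibit distal dendrites, had the highest level of CDH9 at 1486 CPM (libraries 1113.5, 1487 and 1902) and the next class, LHX6 PVALB interneurons, had 770.2 CPM (536, 736 and 1081); the lowest SST library lay above the highest of the next class. The LHX6 PVALB class joins 2 unlike clusters, with CDH9 at 956.9 CPM in the cluster of 1026 nuclei and 87 CPM in that of 279. SST interneurons also led CDH3 over all 18 classes, at 54.6 CPM (39.2, 54.7 and 75.4) against 25.1 CPM in VIP interneurons (18.3, 24.2 and 31.1). The lead of CDH3 ended with libraries weighted equally, at coarser clustering, within libraries 5 to 8 and without library 4.

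VIP interneurons, which mostly inhibit other interneurons, were highest of the 5 classes in CDH18 at 789.5 CPM (libraries 720.1, 780.8 and 899.1), in CDH10 at 620.2 CPM and in PCDH10 at 59.5 CPM, and lowest in CDH12 at 54.4 CPM. For CDH12 the VIP libraries (28.8 to 67.5 CPM) lay below those of each other interneuron class, whose lowest library was 153 CPM. CDH12 in the RELN ADARB2 class (168.8 to 333 CPM), the LAMP5 LHX6 class (152.6 to 314 CPM) and the LHX6 PVALB class (191.5 to 344 CPM) overlapped, so these neighbours did not differ beyond their spread.

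RELN ADARB2 interneurons were the class highest in CDH6 (46.9 CPM) and in CDH4, or R-cadherin (575.6 CPM, with LAMP5 LHX6 interneurons next at 498 CPM and overlapping libraries). Their CDH6 libraries (30.1 to 77.5 CPM) overlapped those of LHX6 PVALB interneurons (8.03 to 63.8 CPM). The smaller LHX6 PVALB cluster stood above them at 85 CPM of CDH6, against 5.31 CPM in the larger one. LAMP5 LHX6 interneurons, a class frequent in primate cortex, were the class highest in CDH20 at 177 CPM (167.2, 181.5 and 218.6 over 5 libraries). The smaller LHX6 PVALB cluster stood above them at 315.8 CPM of CDH20, against 57.2 CPM in the larger one. LAMP5 LHX6 interneurons were lowest of the 5 in 14 of the 27 genes at 10 CPM in an interneuron class, among them CDH7 (4.61 CPM), CDH8 (62.4 CPM), CDH11 (22.5 CPM) and CDH18 (41 CPM). How often all genes were lowest in that class was not counted, so the 14 cannot be set against a background. Their CDH13 was 1342 CPM in the pool, with 563 CPM in library 1 and 1516 to 1914 CPM in libraries 5 to 8. LHX6 PVALB interneurons were highest in PCDH19 at 123.6 CPM and PCDH17 at 162 CPM. Low levels set the order of PCDH8, highest of all classes in VIP interneurons at 39.4 CPM (15.3, 39.4 and 54), and of CDH17, or LI-cadherin of the gut, which reached 12.5 CPM in the LAMP5 LHX6 class alone, with 0 UMIs in its lowest library.

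**Figure D2:**
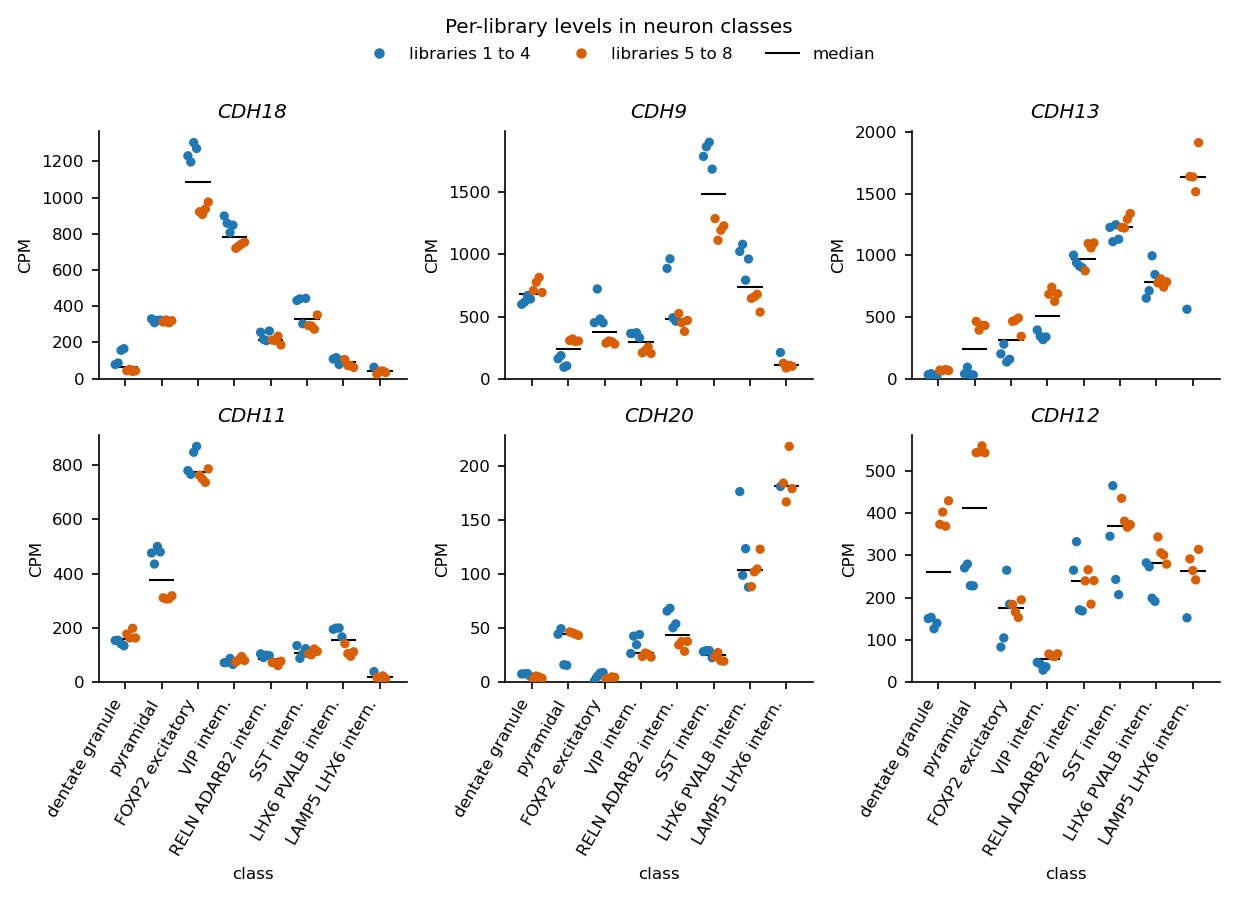
CPM of 6 cadherins in 8 neuron classes, 1 point per library with at least 50 nuclei (blue for libraries 1 to 4, orange for libraries 5 to 8) and the median as a line; each panel has its own axis from 0. CDH18 stands high in FOXP2 excitatory and VIP nuclei, CDH9 in SST nuclei and CDH20 in LAMP5 LHX6 nuclei, while CDH13 and CDH12 in pyramidal nuclei separate by library set.

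Grouped by developmental origin, the LHX6 side (SST, LHX6 PVALB and LAMP5 LHX6 classes) was higher in 2 of 26 genes, CDH9 and CDH20, beside 3.06% of all genes, and the ADARB2 side (VIP and RELN ADARB2 classes) in 3, beside 3.48%. CDH9 was 2.29-fold higher on the LHX6 side (2.24 to 2.35), at 725.9 to 1399.5 CPM against 324.6 to 678.8 CPM without overlap. The classes of a side did not all follow. LAMP5 LHX6 interneurons had 142.4 CPM of CDH9, below VIP (280.9 CPM) and RELN ADARB2 interneurons (561.2 CPM). CDH20 was 25 CPM in SST interneurons, against 30 CPM in VIP and 44.5 CPM in RELN ADARB2 interneurons. CDH18 was 2.36-fold higher on the ADARB2 side (2.28 to 2.45), at 422 to 604.05 CPM against 156.6 to 277.6 CPM. By class, however, CDH18 was higher in SST interneurons (349.9 CPM) than in RELN ADARB2 interneurons (220.2 CPM). CDH6 and PCDH18, also higher on the ADARB2 side, overlapped between libraries. CDH6 was lower in VIP (11 CPM) than in LHX6 PVALB interneurons (22.4 CPM). PCDH18 was higher in SST (7.76 CPM) than in RELN ADARB2 interneurons (6.47 CPM). Within libraries 1 to 4 the calls of CDH6, PCDH18 and CDH20 ended, leaving 2 calls, and within libraries 5 to 8 there were 8.

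Granule and pyramidal neurons are joined in the hippocampus by the mossy fibres, whose synapses depend on CDH9 in mouse studies. They differed in 12 of 24 genes, 4 higher in granule neurons, beside 5.15% of all genes, and 8 higher in pyramidal neurons, beside 5.58%. The median log2 ratio was -0.42, against 0.02 over all genes. Granule neurons had more CDH9, at 597.9, 681.2 and 814.9 CPM against 92, 242 and 319 CPM in pyramidal neurons; the libraries did not overlap and the ratio was 2.71 (2.64 to 2.77). They also had more CDH8, with a ratio of 2.31, and more PCDH15, with a ratio of 3.07. PCDH17 sat at the threshold, with a log2 ratio of 1.02 that was 0.98 under TMM scaling, 0.97 with doublets kept and 0.47 within libraries 5 to 8, and just under 1 without library 2, 3 or 4. The log2 ratio of CDH8 within those libraries was 0.96, which ended its call as well.

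The largest difference was in CDH4, which had 11.1, 20.6 and 34.2 CPM in granule neurons and 259, 317 and 521 CPM in pyramidal neurons. Every library of one class lay far from every library of the other, with a pooled ratio of 19.1 (17.3 to 21.1) and a log2 ratio of -4.90 within libraries 1 to 4 and -3.39 within libraries 5 to 8. The pyramidal clusters were unlike, however. CDH4 was 11.9 CPM in the pyramidal cluster of 682 nuclei, below both granule clusters (14.4 and 30.6 CPM). It was 115.7 CPM in the pyramidal cluster of 622 nuclei and 388.6 to 441.6 CPM in the others. PCDH10 was 7.6-fold higher in pyramidal neurons (6.02 to 9.73), PCDH7 5.87-fold and CDH20 5.81-fold. CDH18 was 3.57-fold and CDH11 2.36-fold higher there, and the log2 ratio of CDH11 within libraries 5 to 8 (-0.82) fell short of the threshold. Of these, PCDH10 alone was above both granule clusters in each pyramidal cluster. In the pyramidal cluster of 682 nuclei PCDH7 was 89.7 CPM (granule clusters 94.3 and 116.1), CDH20 2.29 CPM (7.56 and 4.22) and CDH11 157.3 CPM (149.6 and 176.2). CDH18 was 44 CPM in the pyramidal cluster of 622 nuclei (105.9 and 44.4).

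CDH13 and CDH12 depended on the libraries. CDH13 in pyramidal neurons was 30.8 to 92.7 CPM in libraries 1 to 4 and 393.8 to 464.6 CPM in libraries 5 to 8, so that the pooled log2 ratio of -2.79 was -0.40 within libraries 1 to 4, and -0.99 at finer clustering. CDH12 was 228.1 to 279.7 CPM in pyramidal neurons of libraries 1 to 4 and 543 to 559.2 CPM in libraries 5 to 8. Granule neurons shifted alike, from 126.9 to 153.7 CPM up to 369.4 to 429.4 CPM. The pooled CDH12 ratio of 2.06 therefore came to log2 ratios of -0.74 and -0.48 within the library sets, and the call ended in both and without library 1 or without library 2. Different clusters made up both classes in the library sets: granule nuclei of libraries 1 to 4 lay almost wholly in 1 cluster and those of libraries 5 to 8 in another, and pyramidal nuclei in 1 cluster and 4 others. The library sets also differ in depth, and depth, treatment, animal and dissection cannot be told apart without a key to the suffixes.

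Immature neurons against granule neurons gave the highest share of called genes. Of 25 genes measured, 10 were higher in immature neurons, beside 17.1% of all genes, and 6 higher in granule neurons, beside 8.15%. Only libraries 1 to 4 had 50 nuclei of both classes. Immature neurons had the highest CDH2 of all 18 classes. CDH2, or N-cadherin, which holds neural progenitors and synapses together, was 833.5, 925.4 and 976.7 CPM against 260 to 340.7 CPM in granule neurons, a ratio of 2.92 (2.81 to 3.04) without overlap. PCDH7 was 3.67-fold and CDH4 3.04-fold higher in immature neurons. At low levels, PCDH10 was 4.89-fold higher there (16.8 CPM) and CDH19 3.03-fold (15.8 CPM, libraries 9.66 to 44.7 CPM).

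Granule neurons had 6.07 times the CDH8 (5.66 to 6.5) and 5.35 times the CDH9 (4.9 to 5.86) of immature neurons. For CDH9 the 4 immature libraries lay at 76.1 to 133 CPM and the granule libraries at 598 to 668.5 CPM. CDH12, PCDH1, PCDH19 and PCDH17 were called in the same direction at 2.18-fold to 2.52-fold; CDH12 ended with libraries weighted equally and within libraries 1 to 4. TMM scaling lowered the median of all genes by 0.34 log2 in this comparison and ended the calls of CDH10, CDH13, CDH20, PCDHB10 and PCDHGC5. CDH20 also ended with libraries weighted equally, with doublets kept and without library 1. Immature nuclei averaged 1960 UMIs and granule nuclei 7011, and the part of this depth difference was not tested. Both this comparison and the one with pyramidal neurons use the same granule nuclei.

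**Figure D3:**
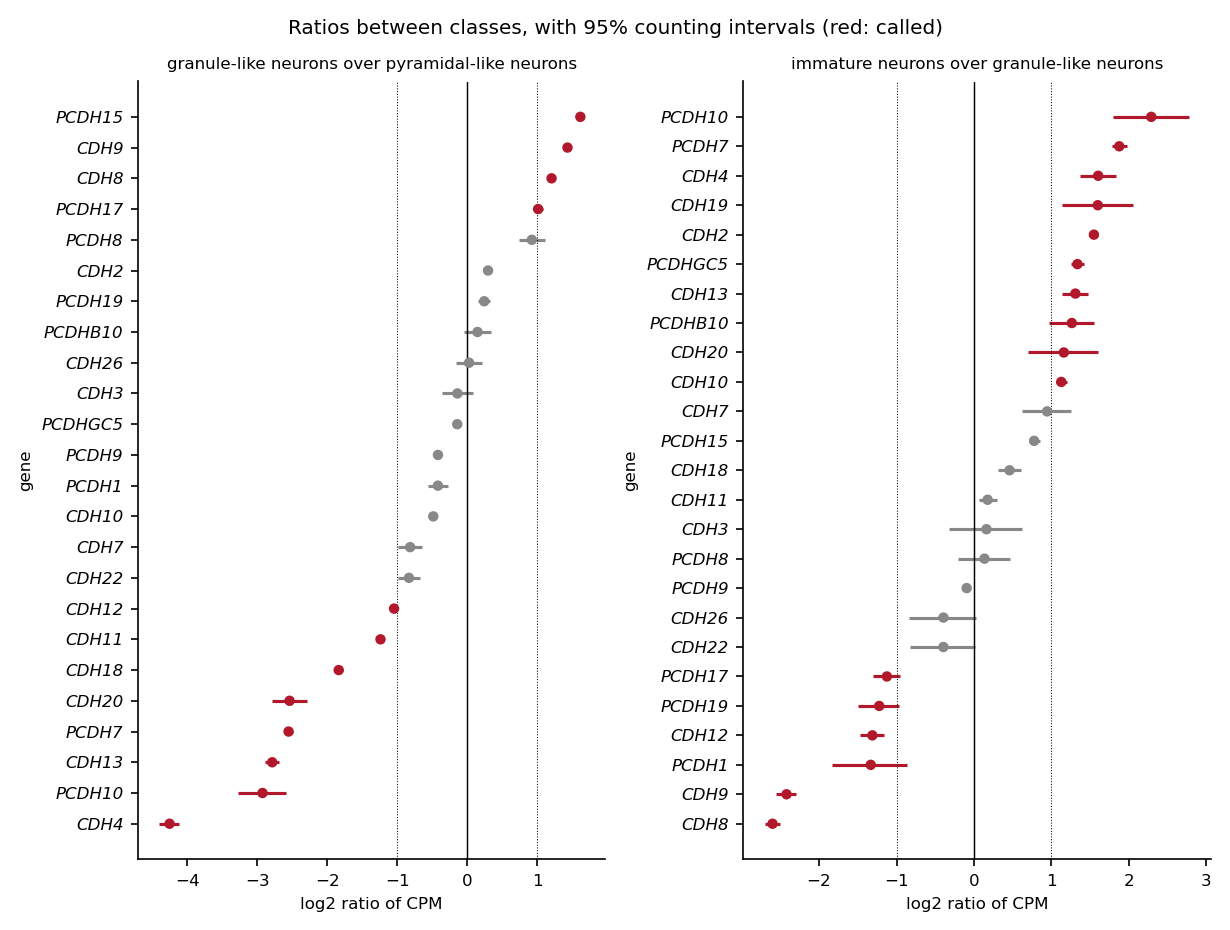
Log2 ratio of pooled CPM for each measured gene, granule over pyramidal neurons (left, 24 genes) and immature over granule neurons (right, 25 genes), with 95% counting intervals as bars, dotted lines at 2-fold and called genes in red. CDH4 is the lowest point on the left at -4.26, and CDH8 the lowest on the right at -2.60.

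FOXP2 excitatory neurons, whose markers are those of deep cortical layers, were highest of all classes in CDH18 at 1046 CPM (907.1, 1086 and 1304) and in CDH11 at 783 CPM (736.2, 772.6 and 868.8); 1 of their 3 clusters, of 136 nuclei, had CDH18 at 223.4 CPM. The next class in CDH11, mural cells and fibroblasts, reached 608.8 CPM in its highest library, and the next in CDH18, VIP interneurons, reached 899.1 CPM. Among the 19 excitatory clusters the values spread further. CDH23 was at 213.5 CPM in that small FOXP2 cluster, against 44.5 CPM in the next excitatory cluster and a median of 7.29 CPM. CDH20 was highest in a pyramidal cluster at 86.2 CPM with a median of 9 CPM, and CDH22 in a cluster of 1664 nuclei at 140 CPM with a median of 18.7 CPM. CDH4 reached 740.2 CPM in 1 cluster and 11.9 CPM in the lowest, the pyramidal cluster of 682 nuclei. The clusters that hold these highest CDH4, CDH20, CDH22 and CDH23 levels had 0% to 1.44% of their nuclei in libraries 1 to 4, so cluster and library set cannot be told apart there.

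The oligodendrocyte lineage had its own order of cadherins. Of 25 genes, 10 were higher in oligodendrocyte precursors than in oligodendrocytes, beside 12.8% of all genes, and 2 were higher in oligodendrocytes, beside 8.07%. The median log2 ratio was -0.63, against -0.08 over all genes. All 4 type I cadherins measured (CDH1, CDH2, CDH3 and CDH4) were on the precursor side. PCDH15 was 2985, 3423 and 3885 CPM in precursors and 24.9, 112 and 145 CPM in oligodendrocytes, a 27.9-fold difference (26.7 to 29.1) without overlap. PCDH15 is also among the 10 leading genes of the precursor cluster, although it took no part in the clustering. CDH4 was 16.9-fold, CDH6 12.5-fold, CDH13 7.15-fold and PCDHGC5 5.41-fold higher in precursors. The libraries of CDH1 and CDH3 overlapped, and those of the other 8 genes did not. Overlap was not counted over all genes here either.

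PCDH9 and CDH7 went the other way. PCDH9, a delta-1 protocadherin, had 14039, 16468 and 17952 CPM in oligodendrocytes and 6178, 6638 and 7508 CPM in precursors, a ratio of 2.51 (2.49 to 2.53). Oligodendrocytes also led PCDH9 over all classes, 2.24-fold above FOXP2 excitatory neurons; that lead was just under 2-fold within libraries 1 to 4 (log2 ratio 0.98) and at finer clustering (0.87). CDH7 was 420 CPM in oligodendrocytes and 23.6 CPM in precursors, a ratio of 17.8 (15.6 to 20.3). Within libraries 5 to 8, where precursors gave 2 UMIs of CDH7 in all, the log2 ratio was 7.10 against 4.15 in the pool. Newly formed oligodendrocytes had more CDH7 still in the pool, 579 CPM, with libraries (397.2 to 668.1 CPM) that overlapped those of oligodendrocytes (161.6 to 449.6 CPM). That level rests on a cluster of 168 nuclei at 2457 CPM, the highest of the 45 clusters, while the other newly formed cluster, of 1136 nuclei, had 216 CPM.

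Newly formed oligodendrocytes had values outside the range of both neighbours for several genes. PCDH7 was 3171, 3694, 3993 and 4055 CPM in their 4 libraries, against 1243 to 1914 CPM in oligodendrocytes and 1077 to 1378 CPM in precursors. That lead over the next class was 2.15-fold, and within libraries 5 to 8 it fell just short (log2 ratio 0.99). CDH6 was 165.9 to 230.6 CPM in newly formed oligodendrocytes, 40 to 88.1 CPM in precursors and 0 to 7.87 CPM in oligodendrocytes, with no overlap between any 2 of the 3. CDH19 was 459.6 to 583 CPM, above the oligodendrocyte libraries at 201.6 to 283 CPM. PCDH15 was 2246 CPM, between precursors and oligodendrocytes. These pooled values are mostly those of the larger of the 2 clusters. PCDH15 was 2634 CPM in the larger and 236.5 CPM in the smaller, CDH6 240.8 and 1.17 CPM, and CDH19 620.7 and 87.8 CPM. For PCDH15 and CDH6 the smaller cluster was therefore near oligodendrocytes, and for CDH19 it was below them. PCDH7 was high in both, at 3421 and 5943 CPM, and the 2 oligodendrocyte clusters had 856.7 and 2852 CPM.

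CDH19 in precursors followed the library set. It was 151.7 to 377.1 CPM in libraries 1 to 4 and 18.7 to 54.6 CPM, from 4 to 12 UMIs each, in libraries 5 to 8. Summed oligodendrocyte markers in precursors ran from 86.4 to 1165 CPM across libraries, and their part in the CDH19 level was not tested. The ratio of oligodendrocytes to precursors was accordingly near 1 in the pool (log2 0.00) and 2.60 on the log2 scale within libraries 5 to 8.

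**Figure D4:**
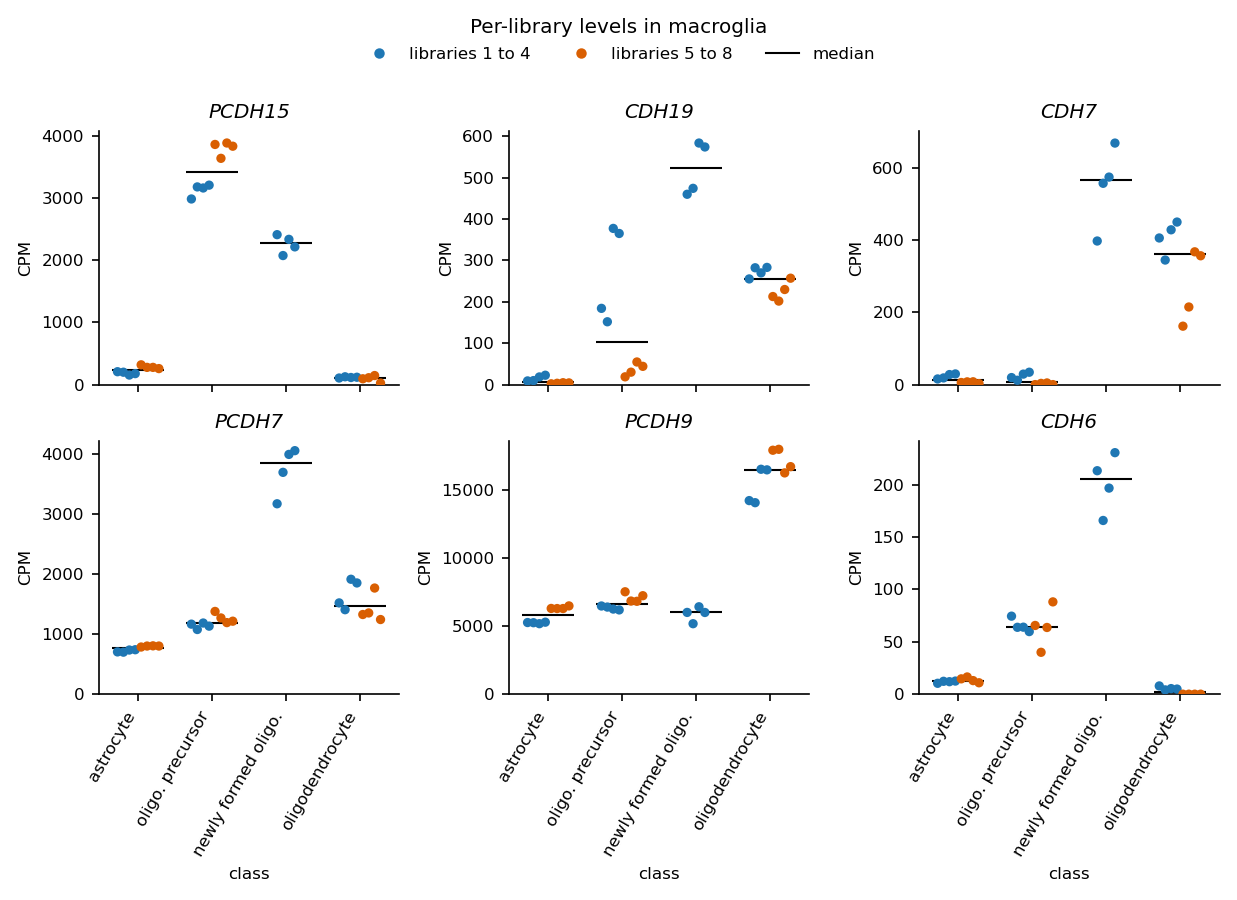
CPM of 6 genes in astrocytes and the 3 stages of the oligodendrocyte lineage, 1 point per library with at least 50 nuclei (blue for libraries 1 to 4, orange for libraries 5 to 8) and the median as a line; each panel has its own axis from 0. PCDH15 is high in precursors and newly formed oligodendrocytes, CDH6 and PCDH7 peak in newly formed oligodendrocytes, PCDH9 is highest in oligodendrocytes, and CDH19 in precursors separates by library set.

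Astrocytes and precursors differed in 8 of 26 genes, and 18 were called in neither direction. Of the 26, CDH4 alone was called higher in astrocytes, beside 11.3% of all genes, and 7 higher in precursors, beside 8.08%; the same precursor nuclei serve both comparisons. CDH4 had 470.6, 837 and 1302 CPM in astrocytes and 186.5, 201.6 and 234 CPM in precursors, a ratio of 3.71 (3.54 to 3.89). Astrocytes of libraries 5 to 8 had 1139 to 1302 CPM and those of libraries 1 to 4 had 470.6 to 535 CPM; the log2 ratio was 2.59 and 1.29 in these sets against 1.89 in the pool. One astrocyte cluster of 3240 nuclei, almost wholly from libraries 5 to 8, had a median of 1838 UMIs, or 0.308 of its libraries' median, and none of the astrocyte markers used for naming is among its 10 leading genes. It is nearly absent from libraries 1 to 4, whose value is therefore the one without it. On the precursor side were CDH19, PCDH15, CDH6, CDH13, PCDH19, CDH3 and CDH1. PCDH15 was 14.6-fold, CDH6 5.18-fold and CDH13 4.57-fold higher in precursors, all 3 without overlap between libraries. The call of CDH1 ended without library 1.

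Ependymal cells, which line the ventricles with motile cilia, had the highest CDH4 and CDH23 of all classes. CDH4 was 847 CPM (650.9, 873 and 1252), close to astrocytes at 749.9 CPM, and was above them in 4 of 8 libraries. CDH23 was 101.6 CPM (84.2, 95.9 and 182) and microglia were next at 96.5 CPM (10.8, 86 and 139.7), above which it stood in 4 of 7 libraries; neither pair differed beyond its spread. CDH26, whose highest class was astrocytes at 32.2 CPM, stayed at or above 12.5 CPM in every class. No UMI of CDH5 was found among 3907889 UMIs of ependymal nuclei, an upper 95% limit of 0.944 CPM.

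Microglia had the highest pooled CDH13, at 1926 CPM (1888 to 1965). The libraries ran from 539 through 1955 to 2022 CPM: libraries 1 to 4 had 1955 to 2022 CPM, and libraries 5, 6 and 7, with 54 to 56 nuclei each, had 880, 539 and 1120 CPM. CDH13 was above LAMP5 LHX6 interneurons, the next class, in 1 of 4 libraries, so the 2 classes were not separated. Marker levels of other cell types in microglia were 374 CPM for excitatory neurons (283 to 517), 95.1 CPM for inhibitory neurons (70.8 to 202.6) and 27.2 CPM for lymphocytes. The neuronal genes CDH12 and CDH9 stood at 78.5 and 106 CPM in the same nuclei.

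CDH5, or VE-cadherin, the adhesion protein of endothelial junctions, was 85.5, 137 and 135.5 CPM in the 3 libraries with 50 endothelial nuclei. It was 21.6 CPM in mural cells and fibroblasts and at most 4.63 CPM in the other 16 classes. Of 27 genes measured, 6 were called higher in endothelial cells than in mural cells and fibroblasts, beside 8.27% of all genes, and 0 lower, beside 12.2%. Just 2 libraries had 50 nuclei of both classes, which makes the direction requirement weak. CDH20 was 9.48-fold higher in endothelial cells (5.54 to 17.6), CDH5 5.25-fold (3.22 to 9.08) and CDH2 4.48-fold (3.69 to 5.48).

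PCDH1 and PCDH7 were also called, and CDH23 with an interval that includes 1 (0.893 to 8.26). PCDH1 ended with doublets kept, PCDH7 within libraries 1 to 4, where only library 1 counts, at a log2 ratio of 0.28 against 1.42 in the pool, and CDH23 without library 6. The endothelial class had summed mural markers of 716 CPM beside 1323 CPM in mural cells, and 1 of its 2 clusters (104 nuclei) also scored as mural; their part in these ratios was not tested. Mural cells and fibroblasts had endothelial markers at 140.3 CPM against 8238 CPM. Both vascular classes had CDH11 near the same level, 467.03 and 476.1 CPM, and CDH6 at 126 and 176 CPM, but their clusters differed. CDH6 was 12.1 CPM in the endothelial cluster of 352 nuclei and 277.8 CPM in the one of 104, and it was 12.4 and 516.2 CPM in the mural and fibroblast clusters of 291 and 165 nuclei. CDH11 split the same way, at 290.3 and 703.4 CPM and at 355.4 and 726.4 CPM. PCDH18, a delta-2 protocadherin, had its highest level in mural cells and fibroblasts at 30 CPM from 25 UMIs, and PCDH12, an endothelial protocadherin, its highest in endothelial cells at 9.73 CPM.

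Clustered protocadherins were mostly near the floor of detection. Of the 11 PCDHB genes, PCDHB10 reached 10 CPM, in 14 of 18 classes, and the others peaked between 0.11 and 5.89 CPM, the last being PCDHB4 in ependymal cells. PCDHB10 was highest in immature neurons at 34.4 CPM (27.3 to 39.4) and next in VIP interneurons at 23.9 CPM. PCDHGC5 was detected in every class from 78.3 CPM in oligodendrocytes to 536 CPM in mural cells and fibroblasts and 500.3 CPM in astrocytes, and its levels in the 4 excitatory classes lay within 1.11-fold of each other. The symbol table names this identifier PCDHGB5, and clustered genes of the gamma group share their 3′ exons, so 3′ reads cannot be assigned to 1 of them and the value may stand for several. PCDHB genes are similar copies, and counting could split reads between them.

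Partner genes of the cadherins were counted by the same rule. Between neurons and non-neuronal nuclei, 4 of 9 measured catenins and adapters were higher outside neurons, beside 18.7% of all genes, and 0 higher in neurons, beside 11.7%. CTNNA3, or alpha-T-catenin, was at 350.2 against 1105 CPM, while CTNNB1, CTNND2 and CTNNA2 were not called. Of 9 catenins and adapters, 0 were called between excitatory and inhibitory neurons, granule and pyramidal neurons, or the LHX6 and ADARB2 sides. The shares of all genes called in either direction there were 12.6%, 10.7% and 6.54%, so few calls among 9 genes are near the background. In the oligodendrocyte lineage, CTNNA3 was 3.56-fold higher in oligodendrocytes, and CTNNA2 and CTNND2 were lower there, at 0.178 and 0.362 of the precursor level. Astrocytes had 4.02 times the CTNNA1 of precursors, and 2.93 times the CTNNA2.

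Of nectins and afadin, NECTIN3 was 5.94-fold higher in pyramidal than in granule neurons, and NECTIN2 5.77-fold higher in inhibitory than in excitatory neurons. All 3 measured were higher in immature than in granule neurons, as were 5 of 10 catenins and adapters, beside 17.1% of all genes. Of other cadherin superfamily genes, 5 of 12 measured were higher in neurons, beside 11.7% of all genes and with CLSTN2 first at 6.37-fold, and 3 higher outside neurons, beside 18.7% and with CDHR3 first. Of 13 genes of the WAVE complex and kinases, PTK2B was 11.9-fold higher in excitatory than in inhibitory neurons, and WASF3 was 0.289 of the inhibitory level. Of 11 measured genes of promoter choice and shedding, 0 were called between excitatory and inhibitory neurons, which is near the background of 12.6% of all genes.

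**Figure D5:**
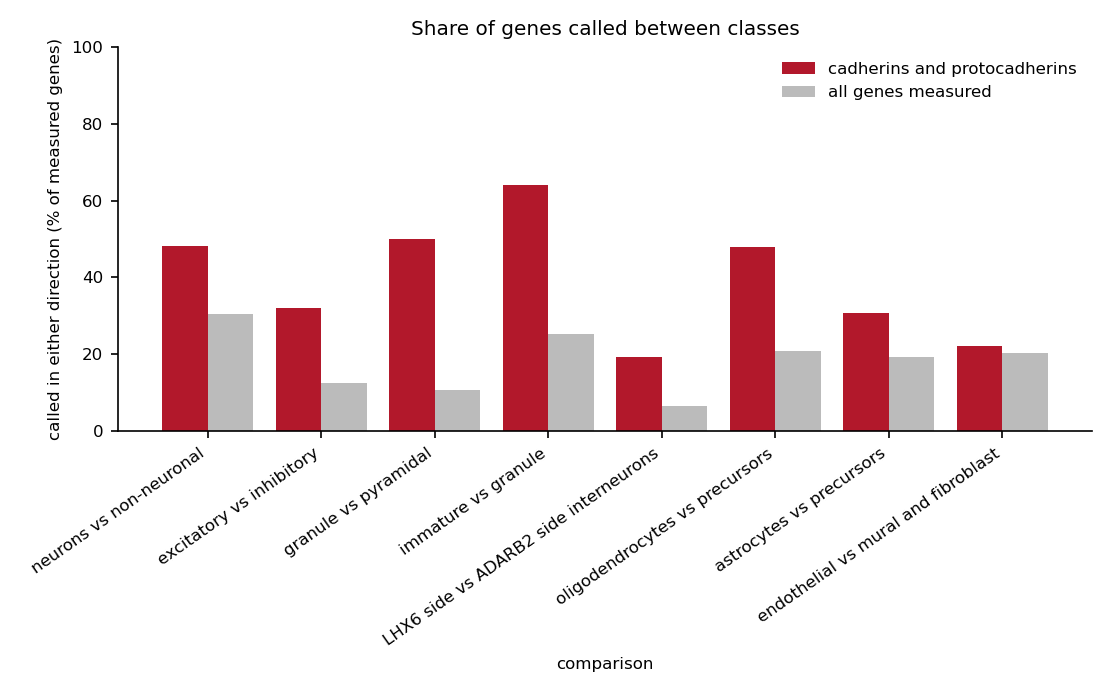
Share of measured genes called in either direction in each of 8 comparisons, for cadherins and protocadherins (red, of 24 to 27 genes measured) and for all genes (grey). The red bar is the higher one in each comparison, by the widest margin between granule and pyramidal neurons (50% against 10.7%) and by the narrowest between endothelial and mural cells (22.2% against 20.4%).

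PCDH11X, outside the rule, was 903.4 CPM in precursors and 84.0 CPM in astrocytes and was called higher in precursors. It was 3.47-fold higher in immature than in granule neurons. Between granule and pyramidal neurons it was higher in granule neurons in 3 of 8 libraries although 7.02-fold lower in the pool. PCDH20 stayed at or below 7.31 CPM in every class compared.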

How the data were processed

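Nuclei of 8 samples were sequenced with a 10x Genomics 3′ kit, and the values used are UMI counts per gene and nucleus as deposited by the authors in 1 matrix. CASAVA 1.8, Seurat and Cell Ranger appear in the submitters' processing notes, and Cell Ranger 3.1.0 made the matrix per the file headers; which build and annotation it used is not given in the sources used here. Barcode suffixes are not tied to samples, so the matrix counts as 1 sample, libraries are shown as its spread, and sevoflurane against control was not run. The libraries fall into 2 sets by depth, which were not matched to treatment.

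Of 59749 barcodes, the 58220 that held 500 UMIs and 300 genes or more went on, and 3576 likely doublets were removed at 0.8% per 1000 nuclei of a library, by comparison with 50 neighbours among simulated doublets. Nuclei were clustered on 2000 variable genes, 30 components and 20 neighbours (Leiden, resolution 1, seed 1), leaving out all cadherins, protocadherins, partner genes and mitochondrial genes. Clusters were named from 152 of 158 listed markers of 24 cell types found in the matrix; the naming rule, the spread over related classes and the look at unnamed clusters were settled after the data were seen. UMIs were summed per class and library and divided by the class total (CPM). Intervals are exact and cover counting error only. UMIs from 1 nucleus are not independent samples.

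The cadherins, protocadherins and lists were chosen with earlier results of these data known. Any cadherin or protocadherin symbol could be named, with full values from 10 CPM; of the 61 partner genes in the matrix, the called gene of largest fold in each direction and 4 catenins could be named. Symbols of 17209 genes were found in a RefSeq-based symbol table. The call rule was tested on simulated data. Alternatives were TMM scaling, equal weight of libraries, 5% free RNA removed, doublets kept, resolutions 0.5 and 2, at least 1000 genes, 5 or 20 CPM, 1.5-fold, either library set and each library left out. Software was Python 3.11.15, numpy 2.4.6, scipy 1.17.1, pandas 2.3.3, igraph 0.11.9, leidenalg 0.10.2, matplotlib 3.10.9, R 4.3.3 and edgeR 4.0.16 (TMM factors only).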

Additional observations from a re-analysis of the deposited data

Results flagged for a closer look

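PCDH15 in oligodendrocytes against precursors had a log2 ratio of -7.27 in library 8, apart from the other libraries at -5.37 to -4.66. The library 8 value rests on 3 UMIs in oligodendrocytes, and among 8 libraries chance sets 1 value apart in this way in about 1 in 20 groups.

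Signals also appeared in nuclei that no comparison used. PCDH8 was 124 CPM (104.6 to 146) in an unnamed cluster of 895 nuclei, from 144 UMIs, with libraries from 69.9 to 151.5 CPM. The highest named class, VIP interneurons, had 39.4 CPM. The leading genes of that cluster include TTR, CHGA and CHGB, and its median was 1030 UMIs per nucleus.

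CDH15, or M-cadherin, known from muscle, was 55.5 CPM (43.4 to 69.9) in another unnamed cluster of 569 nuclei, from 72 UMIs, with libraries from 38.4 to 57.5 CPM. The highest named class had 2.27 CPM. The cluster's leading genes include EGFR and LGR6, and CDH15 itself.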

How the results depend on the processing

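Of the 80 calls in the 8 comparisons, which leave out the 4 genes led by 1 class, 0 changed direction under any alternative run. With 5% of free RNA removed 0 ended. That setting takes the same profile from both classes, which widens a ratio, so it could hardly end a call except near 10 CPM. The looser rules of 5 CPM and 1.5-fold cannot end a call. At resolution 0.5 and with at least 1000 genes per nucleus 0 ended among the comparisons run. The 6 endothelial calls were run in neither setting, and the 5 between the LHX6 and ADARB2 sides not at resolution 0.5. The 16 immature calls were not run in libraries 5 to 8 alone. TMM scaling ended 9, equal weight of libraries 4, doublets kept 4, resolution 2 ended 2, 20 CPM ended 8, libraries 1 to 4 alone 7 and libraries 5 to 8 alone 9; the cause was not tested. TMM moved the median of all genes by 0.22 (neurons), -0.34 (immature), 0.14 (oligodendrocytes) and 0.23 (endothelial) on the log2 scale.

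At 1.5-fold the counts were 13 between excitatory and inhibitory neurons (8 at 2-fold), 10 between the LHX6 and ADARB2 sides (5), 11 between endothelial and mural cells (6) and 7 genes led by 1 class (4). The LHX6 and ADARB2 count was 2 within libraries 1 to 4 and 8 within libraries 5 to 8. The endothelial count was 10 with equal weights, 13 within libraries 1 to 4 and 12 within libraries 5 to 8. Genes led by 1 class numbered 2 within libraries 5 to 8. The counts here and below are not set beside the share of all genes called in the same setting. They show how the counts move with the setting and cannot be read against a background.

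Leaving out each library gave 12 to 13 calls for neurons, 7 to 8 for excitatory neurons, 10 to 12 for granule against pyramidal, 16 for immature, 5 to 6 for the LHX6 side, 12 for oligodendrocytes, 7 to 9 for astrocytes, 6 to 8 for endothelial cells and 3 to 5 genes led. Not run for lack of nuclei or classes were immature against granule neurons in libraries 5 to 8, the LHX6 and ADARB2 sides at resolution 0.5, and endothelial against mural cells at resolution 0.5 and with at least 1000 genes; 5 values were left out because 1 class had no UMI.

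No paired analysis was possible because the barcode suffixes are not tied to samples and no result comes from a test between samples. Depth limits genes near 10 CPM and the smaller classes, where single libraries hold few UMIs.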
